A study of Danio rerio with 6 samples.

Results

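Genes of myelin and of the oligodendrocytes that make it were followed in the forebrain of adult male zebrafish, in its foremost part, the telencephalon. The group held 8 genes chosen by name, pmp22b, mbpa, plp1a, plp1b, mpz, cldnk, olig2 and mag, and all probe sets carrying 1 of these symbols alone in the platform annotation were taken. Of these, 4 genes had probe sets, pmp22b with 2 and mbpa, cldnk and olig2 with 1 each, which made 5 of the 15502 probe sets of the array and 4 of its 8793 named genes. For plp1a, plp1b, mpz and mag no probe set was found by symbol or by gene number, so these genes were not analysed here. The group was put together with the difference between the groups of fish already known, with pmp22b set apart for its low value, so the differences of the group's genes between fadrozole and control are given as measurements without a test.

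Sexually mature males were kept for 10 days with the aromatase inhibitor fadrozole at 200 µg/L and set against control males. Aromatase makes estrogens from androgens. There were 3 fadrozole arrays and 3 control arrays, each hybridised with RNA from about 30 pooled telencephalons. So few arrays limit how precise any value can be. The labels do not say whether the pools of a group came from separate tanks or exposures, so spreads and p-values cover the difference between these arrays, which may be partly technical.

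Myelin is a stack of glial membrane wrapped around axons, held together by a small set of abundant proteins. In the brain it is made by oligodendrocytes, and in peripheral nerves by Schwann cells. Oligodendrocytes arise from precursors that express olig2, and mature cells then switch on the genes of the sheath. In a bulk sample such as this, fewer cells of a type and less transcript per cell cannot be told apart.

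All values below are log2 levels relative to the median of the 3 control arrays, since each probe set was deposited as a ratio to that median. The brightness of a probe set is lost in such a ratio. Levels of different genes can therefore not be set against each other, and whether the myelin genes were detected at all could not be checked. Over the whole array, 0 of 15502 probe sets passed limma's test at an adjusted p of 0.05 (0%), and 655 had an unadjusted p under 0.05 (4.23%). The counts at unadjusted p were 638 to 994 with 1 array left out, with the highest count without control replicate 2.

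Among the genes of the sheath, pmp22b encodes a small membrane-spanning protein that in mammals is best known from compact peripheral myelin. Its 2 probe sets gave different pictures. On probe set Dr.5586.2.A1_at, called the A1 probe set here, the level was -4.02, -1.38 and -1.35 on fadrozole replicates 1, 2 and 3, against 0.45, -0.88 and 0.14 on control replicates 1, 2 and 3. Every fadrozole array lay below every control array, and fadrozole replicate 1 was far below the other two. The difference of the means was -2.15 ± 0.83 (standard error of the limma fit, n = 3 per group), or 4.45-fold lower on the fadrozole arrays. Without fadrozole replicate 1 it was -1.27, a change of over 1.5 times from a single array. The slide numbers in the labels form a run with replicates 1 and 3 of both groups and a run with replicate 2, and the difference was -2.98 in the first run and -0.50 in the second.

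On the other, Dr.5586.1.S1_at or the S1 probe set, the level was 1.35, -0.59 and -0.50 on fadrozole replicates 1, 2 and 3, against 0.11, 1.68 and -0.28 on control replicates 1, 2 and 3. The groups overlapped. Here fadrozole replicate 1 was the highest fadrozole array, where it was the lowest on the first probe set, and control replicate 2 was the highest control array, where it was the lowest on the first. The difference was -0.41 ± 0.75, from -1.04 without fadrozole replicate 1 to 0.18 without control replicate 2. It was 0.51 in the run of replicates 1 and 3 and -2.27 in the run of replicate 2, so the probe sets differed in which run was the lower.

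Since the probe sets deviated in opposite directions on the same arrays, their mean was far tighter than either. The mean of both was -1.34, -0.99 and -0.92 on fadrozole replicates 1, 2 and 3, against 0.28, 0.40 and -0.07 on control replicates 1, 2 and 3. The SD within groups was 1.09 for fadrozole and 1.04 for control on the S1 probe set, and 1.53 for fadrozole and 0.70 for control on the A1 probe set. For the mean it was 0.22 on the fadrozole arrays and 0.25 on the control arrays. Taken as 1 value, pmp22b differed by -1.28 ± 0.26, with a standard error smaller than the 0.83 and 0.75 of its probe sets. This error is small because opposite deviations cancel in the mean. It leaves out the disagreement between the probe sets, so it does not give the precision of a change in the transcript.

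**Figure D1:**
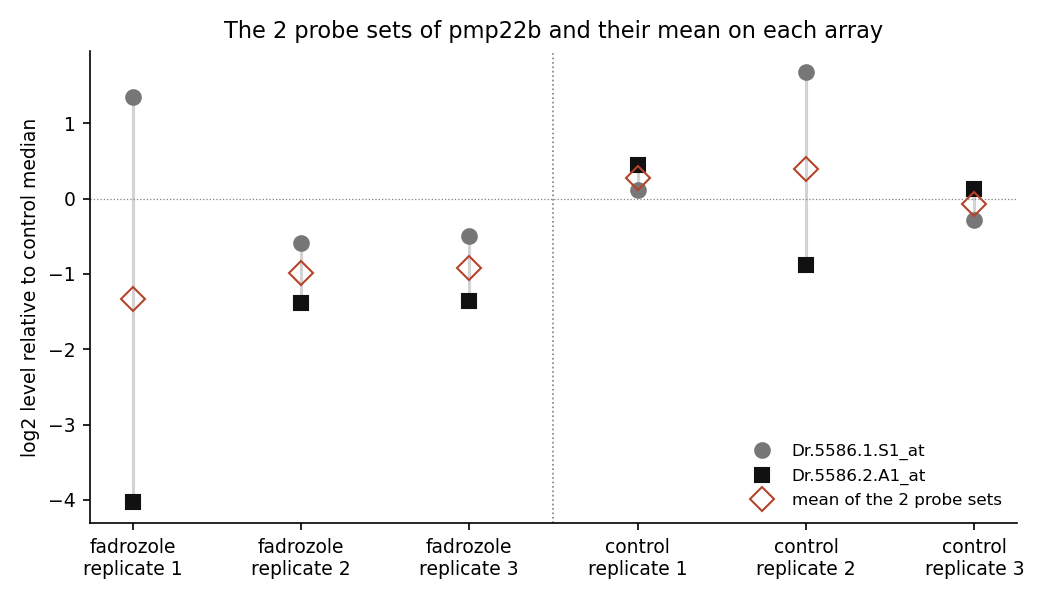
Log2 level relative to the control median of the 2 probe sets of pmp22b and of their mean on each of the 3 fadrozole and 3 control arrays. On fadrozole replicate 1 the probe sets stood at 1.35 and -4.02 and their mean at -1.34, close to the means of -0.99 and -0.92 on the other fadrozole arrays.

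Both the gap between the probe sets and the tightness of their mean were placed among the 1192 genes measured by exactly 2 probe sets. The differences of the 2 pmp22b probe sets lay 1.74 apart on the log2 scale, where the median gap was 0.47 and the 95th percentile 2.06, and 92 genes including pmp22b had a gap at least as large. The within-group SD of the mean was 0.208 of the average SD of the 2 probe sets for pmp22b, where the median gene had 0.789. Only 3 of the 1192 genes, pmp22b among them, had a ratio that low. Over the 6 arrays, which hold both groups, the 2 probe sets correlated with a Pearson r of -0.43, with a median r of 0.09 over these genes. The annotation gives both probe sets to the same gene, and which of them reports the transcript more closely was not tested.

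**Figure D2:**
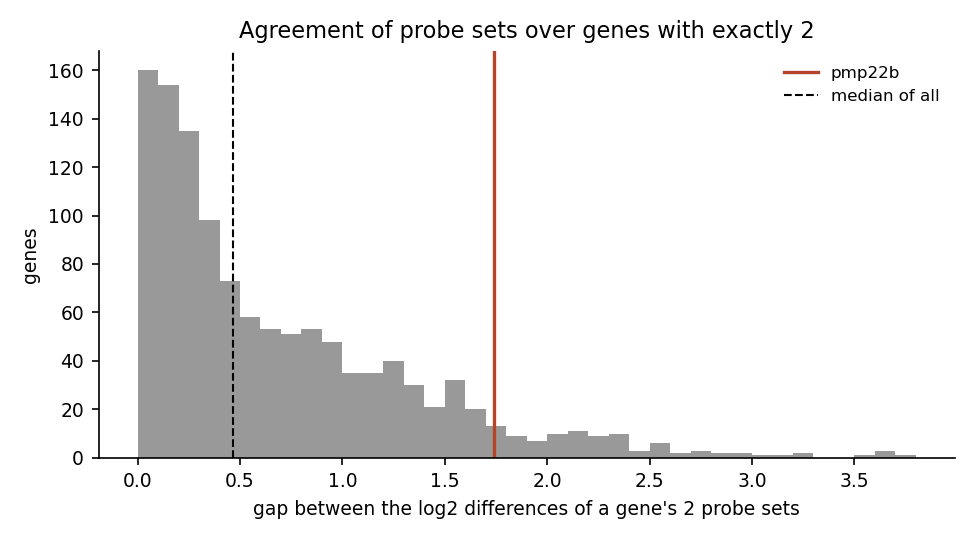
Histogram of the gap between the log2 differences (fadrozole minus control) of a gene's 2 probe sets over the 1192 genes with exactly 2. The solid line marks pmp22b at 1.74 and the dashed line the median gap of 0.47.

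The other 2 sheath genes measured were mbpa and cldnk. Myelin basic protein, the product of mbpa, joins the cytoplasmic faces of the membrane as the sheath compacts. Its level was 0.52, 0.44 and 0.54 on fadrozole replicates 1, 2 and 3, against 0.11, 0.09 and -0.28 on control replicates 1, 2 and 3. All 3 fadrozole arrays lay above all 3 control arrays, and the fadrozole arrays stood within 0.10 of each other. The difference was 0.52 ± 0.26, or 1.44-fold higher on the fadrozole arrays. It was 0.61 within the run of replicates 1 and 3, and 0.34 within the run of replicate 2. It ran from 0.40 without control replicate 3 to 0.59 without control replicate 1. Among all probe sets, the residual spread of mbpa was small, with 4.96% of probe sets at or below its residual SD of 0.16.

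The tight junction protein claudin k, from cldnk, marks myelinating cells of the zebrafish brain and nerves. Its level was -0.12, -0.29 and -0.04 on fadrozole replicates 1, 2 and 3, against 0.11, -0.36 and 0.33 on control replicates 1, 2 and 3. The groups overlapped through control replicate 2, which was the lowest of the 6 arrays. The difference was -0.18 ± 0.30. Its size ranged from -0.37 without control replicate 2 to -0.03 without control replicate 3, and it was -0.31 in the run of replicates 1 and 3 and 0.07 in the run of replicate 2. Of the 5 probe sets it was the only one whose overlap between the groups changed with the scaling of the arrays. As deposited, its ratios were 0.877, 0.908 and 0.909 on fadrozole replicates 1, 2 and 3, against 1, 0.928 and 1.148 on control replicates 1, 2 and 3. In these unscaled ratios no fadrozole array reached the lowest control array, and the log2 difference was -0.19.

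The transcription factor olig2 is needed for oligodendrocyte precursors to form. Its level was -0.35, -0.23 and -1.27 on fadrozole replicates 1, 2 and 3, against 0.29, -0.25 and -1.26 on control replicates 1, 2 and 3. Replicate 3 of both groups was low by about the same amount, and the groups overlapped. The difference was -0.20 ± 0.52, turning to 0.14 without control replicate 1 and to 0.12 without fadrozole replicate 3. It was -0.32 in the run of replicates 1 and 3 and 0.03 in the run of replicate 2.

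**Figure D3:**
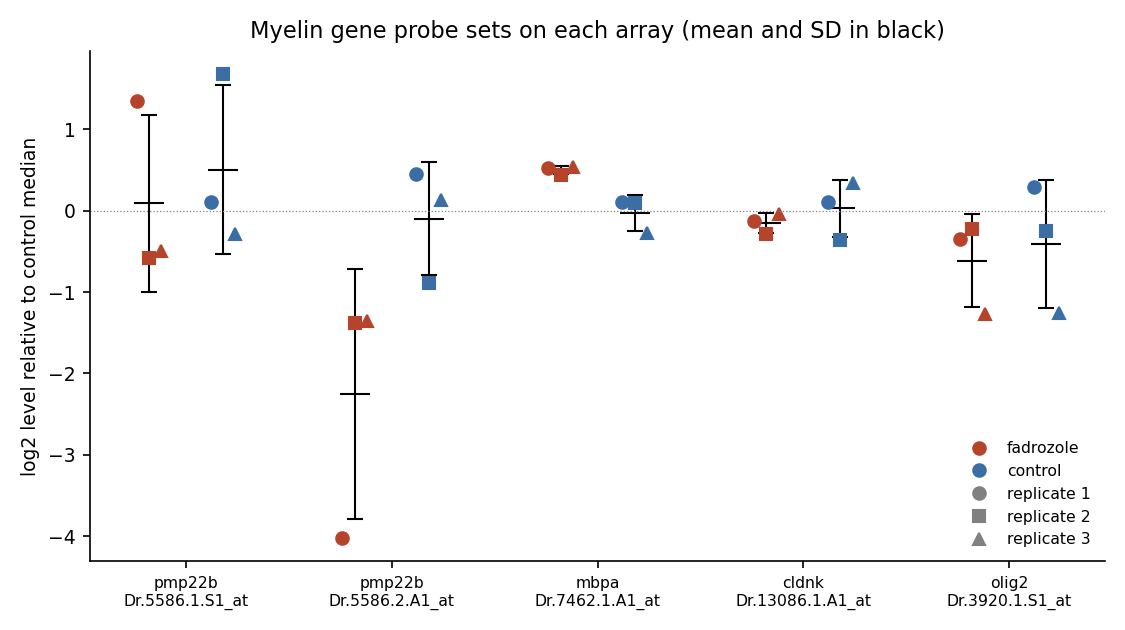
Log2 level relative to the control median of the 5 probe sets of pmp22b, mbpa, cldnk and olig2, with a point for each array (colour for group, shape for replicate number) and the mean ± SD of each group in black. Fadrozole arrays of mbpa sit between 0.44 and 0.54, all above the control arrays, while the A1 probe set of pmp22b runs from -4.02 to -1.35 on the fadrozole arrays.

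Over the 5 probe sets the median difference was -0.20, with 1 higher and 4 lower on the fadrozole arrays. The median was -0.63 without control replicate 3 and -0.11 without fadrozole replicate 2. The groups did not overlap for 2 of the 5, mbpa above and 1 probe set of pmp22b below. Of all probe sets 7.83% had groups without overlap, 3.9% with fadrozole higher and 3.93% with fadrozole lower. These counts use the contrast the genes were chosen on, and nothing is read from them.

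Set against the mean of mbpa, cldnk and olig2 on the same array, the mean of pmp22b was -1.36, -0.96 and -0.66 on fadrozole replicates 1, 2 and 3, against 0.11, 0.57 and 0.33 on control replicates 1, 2 and 3. It averaged -0.99 ± 0.35 with fadrozole and 0.34 ± 0.23 in controls (SD, n = 3 each), a difference of -1.33. The mean of the other 3 genes itself was -0.09 ± 0.15 with fadrozole and -0.14 ± 0.29 in controls (SD, n = 3 each). The SDs of 0.35 and 0.23 rest on the averaging of the 2 pmp22b probe sets, whose opposite deviations cancel. Alone, the A1 probe set gave SDs of 1.63 with fadrozole and 0.66 in controls, and the S1 probe set 1.01 and 1.06. How far pmp22b stood apart also depended on the probe set. With the A1 probe set alone the same difference was -2.20, being -2.98 in the run of replicates 1 and 3 and -0.65 in the run of replicate 2. With the S1 probe set alone it was -0.46, being 0.52 in the run of replicates 1 and 3 and -2.41 in the run of replicate 2.

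The genes whose pattern over the 6 arrays was most like that of the A1 probe set were sought among all probe sets with 1 symbol. By Pearson r these were the histone demethylase gene kdm7aa (0.998), the caveolin gene cav1 (0.995), the centrosomal gene nedd1 (0.993), the kinase gene galk2 (0.985) and clybl (0.981). All 5 were lowest on fadrozole replicate 1, at -3.37, -2.84, -3.36, -2.37 and -0.74 in that order, and their differences ran from -1.81 to -0.36. The A1 probe set was taken as reference for its larger difference, and it was itself lowest on that array. Genes this like it must share both traits, so nothing is read from them. With 6 arrays and 10793 probe sets to choose from, values of r this high are a description of the pattern. By the same measure cldnk had an r of 0.45 with the A1 probe set, olig2 -0.002, the other pmp22b probe set -0.43 and mbpa -0.72. Over the whole array, 4.82%, 5.55% and 5.01% of probe sets lay under -2 on fadrozole replicates 1, 2 and 3, against 2.12%, 4.55% and 2.59% on control replicates 1, 2 and 3. Every fadrozole array had a larger share than every control array, and fadrozole replicate 1 the smallest share of its group. The high side was counted over 1.5, a nearer cutoff than the -2 of the low side, so the sides are not compared. There control replicate 3 had a larger share than fadrozole replicate 2. Over 1.5 lay 7.77%, 4.65% and 8.17% on fadrozole replicates 1 to 3, against 3.8%, 1.75% and 4.79% on control replicates 1 to 3. The division by the control median holds 1 control array at a ratio of 1 for each probe set. This narrows the control values by construction, so nothing is read from the larger shares on the fadrozole arrays. At or below the -4.02 of pmp22b there were 12 probe sets on fadrozole replicate 1.

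Other genes of myelin and oligodendrocytes were described from a list of 88, of which 39 were measured, at gene level with several probe sets of a gene averaged. The list is wide and its genes are not all particular to these cells, as s100b also stands in the radial glia list. Which cells of the sample express each of them was not tested. On the fadrozole arrays 21 were higher and 18 lower, with a median difference of 0.03, and over all 8793 named genes 4396 were higher and 4397 lower, with a median of -0.0002. In limma 2 of the 39 had an unadjusted p under 0.05 and were higher, where 2.12% of all genes did so, and 0 were lower with such a p, where 1.98% of all genes were. Both directions together made up 4.09% of all genes. The count of 2 was 1 without fadrozole replicate 2, control replicate 1 or control replicate 3, and 4 without control replicate 2. None of the 39 passed over all genes, where 0 of 8793 (0%) passed. The list was chosen with earlier results of these data known, so nothing is read from these counts.

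Since the 2 genes at unadjusted p under 0.05 in limma were named for their statistic in this contrast, their p-values are a description. The pmp22b paralog pmp22a was 1 of these 2. Its level was 2.05, 2.30 and 1.45 on fadrozole replicates 1, 2 and 3, against 0.11, 1.55 and 0.14 on control replicates 1, 2 and 3. Its single probe set differed by 1.33 ± 0.49 (limma, unadjusted p = 0.0342, adjusted p = 0.999), the opposite direction to the mean of pmp22b. Control replicate 2 lay above fadrozole replicate 3, so the groups overlapped. The difference ran from 1.09 to 1.81 with 1 array left out, and was 0.88 with quantile normalisation. It was 1.63 in the run of replicates 1 and 3 and 0.75 in the run of replicate 2. The other was tppp3, of the family of tubulin polymerisation promoting proteins, at 1.62, 0.85 and 0.90 on fadrozole replicates 1, 2 and 3, against -1.07, -0.25 and 0.21 on control replicates 1, 2 and 3. It differed by 1.49 ± 0.42 (limma, unadjusted p = 0.0124, adjusted p = 0.945) and was the only gene of the 39 whose groups did not overlap, where 7.82% of all genes had such groups.

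The mbpa paralog mbpb, named here after its values were seen, stood at 0.08, 0.53 and 0.27 on fadrozole replicates 1, 2 and 3, against 0.11, 0.73 and -0.04 on control replicates 1, 2 and 3. Its difference was 0.03 ± 0.30, where that of mbpa was 0.52 ± 0.26. A group of 10 genes, called the sheath group here, held pmp22a, mbpb, cldn11a, cldn11b, hapln2, tspan2a, cd9b, ca2, sirt2 and s100b. It is a loose group and not one of sheath proteins alone, as s100b also stands in the radial glia list. In this group 5 genes were higher and 5 lower, with a median of -0.001. At the low end were hapln2, whose product is a link protein of the matrix at nodes of Ranvier in mammals, at -1.31 ± 0.69, and the claudin gene cldn11a, whose mammalian counterpart seals central myelin, at -0.79 ± 0.49. For cldn11a it was -0.44 without control replicate 3 and -1.14 without control replicate 2. For hapln2 the difference was -0.70 in the run of replicates 1 and 3 and -2.53 in the run of replicate 2. The 4 measured genes of the proteolipid protein family, to which the unmeasured plp1a and plp1b belong, were gpm6aa, gpm6ab, gpm6ba and gpm6bb. Their differences lay between -0.03 and 0.03 with a median standard error of 0.27. These values do not stand in for plp1a and plp1b, and which cells they come from was not tested.

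Regulators of the lineage had a higher median standard error than the sheath group, in groups formed after the values were seen. Of 10 transcription factors and RNA-binding regulators, 4 were higher and 6 lower, with a median difference of -0.20. Their median standard error was 0.73, against 0.32 for the sheath group. The ranges were nearly the same, from 0.26 to 1.01 for the regulators and from 0.22 to 0.99 for the sheath group. The neural crest and oligodendrocyte factor sox10 was at 0.81, 0.01 and 0.54 on fadrozole replicates 1, 2 and 3, against 0.11, 0.21 and -2.73 on control replicates 1, 2 and 3. Its difference of 1.26 ± 0.84 was 0.29 without control replicate 3, the array that stood far below the others. For sox10 it was 1.99 in the run of replicates 1 and 3 and -0.20 in the run of replicate 2. The factor egr2b, whose mammalian counterpart drives myelination in Schwann cells, was at -0.70 ± 0.48, and at -0.20 without fadrozole replicate 1. Among 6 genes of growth factor and receptor signalling 3 were higher and 3 lower, from cxcr4b at -0.34 ± 1.18 to adgrg1 at 0.89 ± 1.41. Of 6 genes of axon contact, transport and outgrowth inhibition, a group formed after the values were seen, all had positive differences, from lingo1b at 0.13 to cntn2 at 1.26 ± 0.92, with 0 at an unadjusted p under 0.05 in limma. In the run of replicate 2 alone, rtn4a was at -0.17, cntn1a at -0.06, cntn1b at -0.48 and lingo1b at -0.17, and in the run of replicates 1 and 3 kif1b was at -0.41. The 2 probe sets of kif1b differed by -0.18 and 0.63.

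**Figure D4:**
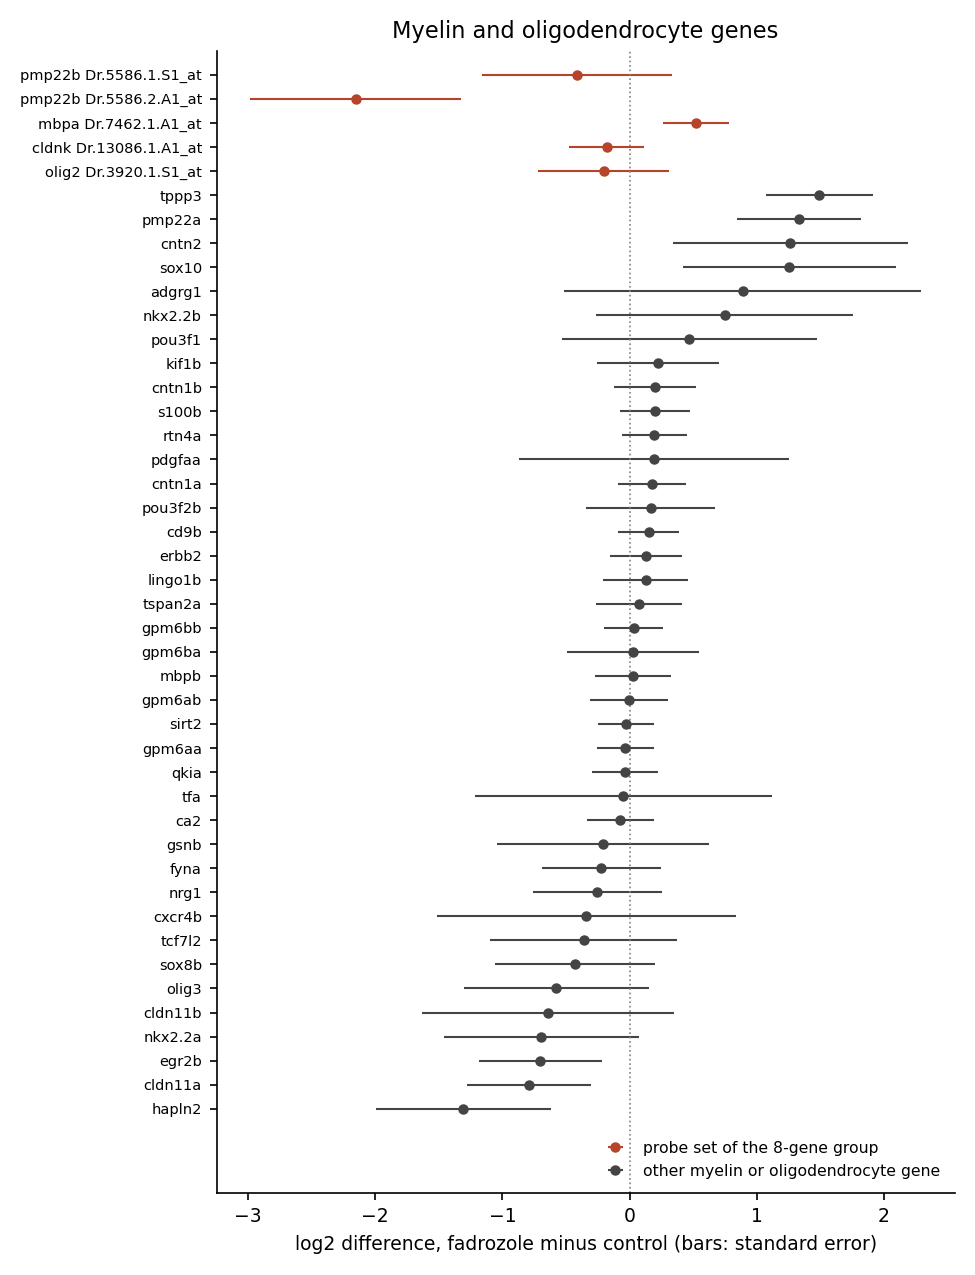
Log2 difference, fadrozole minus control, with the standard error of the limma fit. The 5 probe sets of pmp22b, mbpa, cldnk and olig2 are at the top. Below are the 39 measured genes of the wider myelin list, not all particular to oligodendrocytes, in order of their difference. The genes run from tppp3 at 1.49 to hapln2 at -1.31 and 21 of the 39 lie above 0.

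Markers of other cells that a dissected telencephalon can hold were measured beside the myelin genes. For meninges and connective tissue, whose fibroblasts also express PMP22 in mammals, 13 of 20 genes were higher and 7 lower, with a median of 0.06. The mean of that list was 0.39, -0.08 and 0.04 on fadrozole replicates 1, 2 and 3, against -0.001, -0.27 and 0.15 on control replicates 1, 2 and 3. Its highest value was on fadrozole replicate 1. For neurons 5 of 15 genes were higher, with a median of -0.03, and the list means lay between 0.07 and 0.17 on the fadrozole arrays and between 0.02 and 0.26 on the control arrays. Radial glia had 9 of 19 higher and a median of -0.02. Their list means were -0.05, -0.08 and -0.10 on fadrozole replicates 1 to 3, against 0.03, 0.06 and 0.10 on control replicates 1 to 3. All named genes averaged 0.03, -0.09 and 0.05 on fadrozole replicates 1 to 3, against 0.03, -0.15 and 0.06 on control replicates 1 to 3. Relative to these averages, the radial glia list on fadrozole replicate 2 was no longer below that on control replicate 1. Microglia and macrophages had 5 of 18 higher and a median of -0.16, and red blood cells 6 of 11 and 0.05. At an unadjusted p under 0.05 in limma, 3 of the 19 radial glia genes were lower and 0 higher, where 1.98% of all genes were lower. They were brain aromatase cyp19a1b at -1.11 ± 0.31 and the Notch pathway genes her4.2 at -0.75 ± 0.25 and notch1a at -0.89 ± 0.35. In the same test 2 of 20 genes of meninges and connective tissue were higher, the collagen gene col6a3 at 2.21 ± 0.49 and twist1a at 1.97 ± 0.54, where 2.12% of all genes were. Of microglia 1 was higher, ptprc at 1.54 ± 0.56, and 1 lower, lgals9l1 at -1.91 ± 0.60. Neurons and red blood cells had 0 genes at such a p. None of the markers passed the adjusted test. These lists too were chosen with earlier results of these data known, and the genes were named by their p in this contrast. Nothing is therefore read from the counts at unadjusted p. With 1 array left out the medians ran from -0.16 to 0.16 for meninges and connective tissue and from -0.40 to 0.10 for microglia. That of red blood cells ran from -0.16 to 0.34. None of these kept its sign, nor did the medians of neurons and radial glia. The microglial list spread most between arrays, with means from -0.40 to 0.55 on the fadrozole arrays and from -0.25 to 1.04 on the control arrays. Since levels are lost in the ratios, which of these markers were at background could not be seen, and the part of other cell types in the myelin values was not tested.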

How the data were processed

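The deposited table holds 1 ratio per probe set and array. The authors had divided each probe set by its median over the 3 control arrays, seen from a control median of exactly 1 in all 15617 rows. How arrays were scanned, scaled and summarised to probe sets is not given in the sources used here. Biotin-labelled RNA was hybridised, per the labels' protocols. Of the rows, 115 were the manufacturer's control probe sets and were dropped. Ratios were turned to log2 and each array was shifted by its median distance, over probe sets, from the mean of the 6 arrays, with the shifts centred on 0. No filter on dim probe sets was possible. Names came from GEO's platform annotation, with gene numbers found in the RefSeq GRCz12tu table for 10711 of 10795 probe sets with 1 symbol, which updated 1 symbol. Fadrozole was compared with control over all probe sets, and over genes with their probe sets averaged, with limma 3.58.1 (lmFit, then eBayes) under R 4.3.3. Tests were two-sided and p-values adjusted after Benjamini and Hochberg. The fit was also run on simulated data with independent noise on each array. That checks the code only, since it holds none of the likeness between arrays described below.

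Genes and lists were chosen with earlier results of these data known. The genes named beyond the group of 8 were the 3 with the highest and the 3 with the lowest moderated statistic of the wider myelin list. To these were added the 5 most like the A1 probe set of pmp22b by Pearson r, the pmp22b probe set with the larger difference. The groups by role were formed after the values were seen. Named then were gpm6aa, gpm6ab, gpm6ba, gpm6bb, cxcr4b, adgrg1, lingo1b, cntn2, kif1b, rtn4a, cntn1a, cntn1b, mbpb, cldn11b, tspan2a, cd9b, ca2, sirt2, s100b and the markers of other cell types. The gene s100b stands in both the myelin and the radial glia list. Likewise vim stands in the list of meninges and connective tissue and in that of radial glia. Replicate numbers come from the labels. Slide numbers in the labels form 2 runs, one with replicates 1 and 3 of both groups and one with replicate 2. Deviations from group means of same-numbered arrays correlated with r of 0.06, 0.19 and 0.09 for replicates 1, 2 and 3 across probe sets. Between replicates 1 and 3, which share a run, r was 0.02 and 0.03. Between replicate 2 and these it ran from -0.12 to -0.08. Arrays of the same run were thus slightly more alike, and so were same-numbered arrays. The main fit used no block, which leaves what such arrays share in the spread, and blocks were run as alternatives. Alternatives changed the scaling, an offset of 0.1, blocks, array weights, the variance trend, the unit and the arrays used.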

Additional observations from a re-analysis of the deposited data

How the results depend on the processing

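The differences of mbpa, cldnk and the A1 probe set of pmp22b kept their direction under all 15 alternatives run for each. They ran from 0.40 to 0.61, from -0.37 to -0.03 and from -2.98 to -1.27. Blocks cannot change these differences in this balanced design. The groups of mbpa and of the A1 probe set did not overlap, so leaving out arrays could not turn their direction either. Nothing is read from the count of 15. The differences of olig2 and of the S1 probe set of pmp22b turned under 2 of 15 each. For olig2 they were 0.12 and 0.14 with 1 array left out. For the S1 probe set they were 0.18 without control replicate 2 and 0.51 with the run of replicates 1 and 3 alone. The low position of pmp22b against mbpa, cldnk and olig2 was -1.33 with both probe sets averaged. With the first probe set of each gene in order of its name it was -0.46. With both averaged and 1 array left out it was -1.49 to -1.15. In this average the groups did not overlap, so leaving out arrays could not turn its direction. The opposite deviations of the 2 probe sets also cancel in it, so nothing is read from the narrow range. The share of probe sets with a residual SD at or below that of cldnk was 16.7%, and 0.46% with no shift removed. For mbpa the share was 4.96%, and it was 10.0% with no shift removed and 8.46% with quantile normalisation. Over all probe sets, 0 passed the adjusted test under all 16 alternatives, and the 655 at unadjusted p under 0.05 became 338 with quantile normalisation and 638 to 994 with 1 array left out. With genes as the unit, 360 of 8793 genes (4.09%) had such a p, beside 4.23% of probe sets. With the replicate block the 655 became 842, and with the slide run as a block 794. The differences between the groups stayed as they were under both. With the replicate block the count of wider myelin genes stayed at 2. Of the 39 wider myelin genes, the 2 at unadjusted p under 0.05 became 1 with no shift removed, with plain median centring and with quantile normalisation, and 1 to 4 with 1 array left out. The median of that list ran from -0.03 to 0.14, and it turned under 5 of 11 alternatives. With 1 array left out the neuronal median ran from -0.11 to 0.10 and the radial glial one from -0.10 to 0.053, with the ranges of the other marker lists given beside their medians. The causes were not tested. Without signal levels, the signal over background behind these values is unknown.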
